A study of Mus musculus with 8 samples.

Results

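Paneth cells are the secretory cells at the base of the small intestinal crypt, and the cells described here are organoid cells chosen for their Paneth products. A cell barcode counted as a member when at least 500 genes were detected in it, at most 20% of its unique molecular identifiers (UMIs) came from mitochondrial genes, and Lyz1, Defa24 and Defa30 together held at least 0.2% of its UMIs. The rule found 111 members among the 1577 organoid barcodes that passed the first 2 filters. There were 60 members of 540 in the control library and 51 of 1037 in the cocultured library. The members were thus chosen by the levels of 3 Paneth genes, so those levels describe the choice and support nothing further.

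The series compared mouse small intestinal organoids, tissue cells and tissue sections in 8 libraries that hold 28486 barcodes or spots in all. Both organoid groups carried the labels strain C57BL/6, small intestine and passage 1. The control group (CTRL) was grown alone and the cocultured group (COCULTURE) with a partner that the labels do not name, and per the design text 16 wells of each were pooled and 100000 epithelial cells sorted from each before droplet sequencing. There was 1 library per condition, so a difference between them has no replicate check, no test was possible, and every interval given covers counting error only.

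As background, Paneth cells pack granules with lysozyme, alpha-defensins and other antimicrobial proteins and release them into the crypt lumen. They lie between the Lgr5-positive stem cells and supply them with Wnt and Notch ligands, epidermal growth factor and metabolic support. They share with goblet cells the secretory programme set by the transcription factors Atoh1 and Spdef, while Sox9 and high Wnt signalling mark the Paneth branch.

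Most alpha-defensin genes sit together in 1 gene cluster on mouse chromosome 8, and their upstream sequence is shown because the family supplied 2 of the 3 genes of the rule and most of the members' granule UMIs. The 100 bases before the annotated start (GRCm38.p6, RefSeq, 5′ to 3′ on the gene's strand) follow for Defa30 (chr8:21134550-21134649, plus strand) and Defa22 (chr8:21162177-21162276, plus strand), which are alpha-defensins, and for Lyz1 (chr10:117292869-117292968, minus strand) and Ang4 (chr14:51773591-51773690, minus strand), which are not. Capitals mark TATAAA, the core promoter motif called the TATA box.
Defa30: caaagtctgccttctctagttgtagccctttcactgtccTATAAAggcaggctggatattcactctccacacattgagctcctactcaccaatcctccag
Defa22: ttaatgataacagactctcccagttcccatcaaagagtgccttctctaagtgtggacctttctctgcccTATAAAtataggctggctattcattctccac
Lyz1: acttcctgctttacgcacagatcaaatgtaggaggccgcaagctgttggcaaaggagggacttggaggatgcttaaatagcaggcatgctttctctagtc
Ang4: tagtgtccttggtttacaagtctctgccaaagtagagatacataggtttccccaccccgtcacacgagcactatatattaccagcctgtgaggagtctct

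The motifs were searched on both strands from 250 bases before to 50 bases after each start. TATAAA was present in 12 of the 13 alpha-defensin promoters with an entry, against 13.6% of all 32851 promoters of the same 300 bases. CTTTGAA and CTTTGTT, 2 of several letter forms of the TCF motif, were in 0 of the 13 and in 5.1% and 5.9% of all promoters. Other forms were not searched, and nothing is drawn from this about the factor. These are matches of letters and not shown binding sites.

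The members fell into 2 depth classes, and the Paneth name went against the data for most of the shallow class and for some of the deep class. A line at 10000 UMIs, placed after the values were seen, left 44 of the 60 control members below it, at 857 to 3427 UMIs, and 16 above it, at 22914 to 387180. In the cocultured library 15 of 51 members lay below, at 943 to 9969 UMIs, and 36 above, at 21347 to 341025. The deep members held 97.1% of the control members' UMIs and 99.0% of the cocultured members' UMIs, so summed levels come almost wholly from them.

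**Figure D1:**
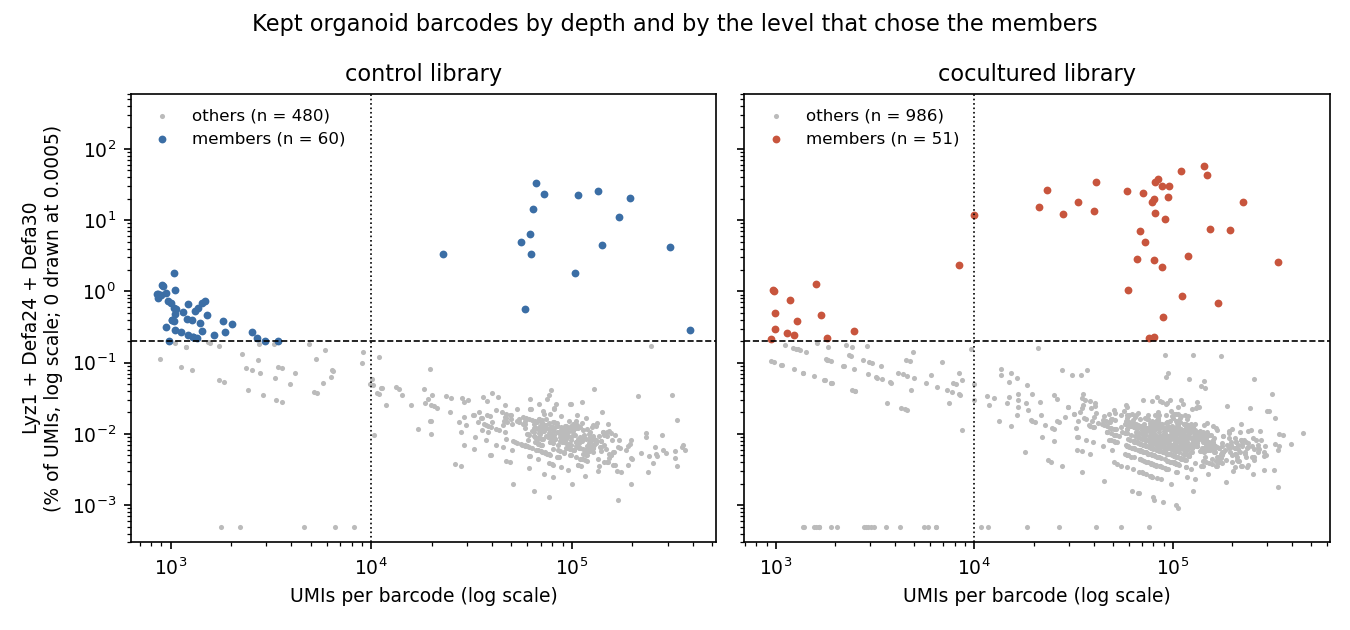
Each point is 1 kept organoid barcode, with its UMIs on the x axis and the percent of its UMIs from Lyz1, Defa24 and Defa30 on the y axis (both log scales), control on the left and cocultured on the right; the dashed line is the 0.2% rule and the dotted line 10000 UMIs. The coloured members form a shallow group, 44 in control and 15 in coculture, and a deep group of 16 and 36 that reaches 33.1% and 57.9%.

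The shallow members did not carry a Paneth profile. A shallow control member held a median of 4 Defa24 UMIs, 1 Lyz1 UMI and 1 Defa30 UMI, so a handful of molecules carried it past the rule. Their summed alpha-defensin level was 5315 counts per 1000000 UMIs (CPM), against 99530 CPM in the deep control members. Their summed enterocyte markers (10 genes, among them Fabp1, Alpi and Apoa1 of fat uptake and the brush border) stood at 8903 CPM, against 497.9 CPM in the deep control members. Outside the rule they stood at 9137 CPM in deep and 16950 CPM in shallow control barcodes. Of the 44 shallow control members, 3 held 40.9% of these UMIs, and the other 41 stood at 5580 CPM. The 15 shallow cocultured members summed to 42470 CPM of alpha-defensins, but 2 of them, at 8408 and 9969 UMIs, held 94.5% of those UMIs, and the other 13 stood at 4789 CPM. Over all 15, enterocyte markers stood at 5968 CPM, with 237.9 and 702.2 CPM in the 2 rich in alpha-defensins. Another 2, at 943 and 1824 UMIs, held 36.2% of these enterocyte UMIs. The data therefore go against the name Paneth for most shallow members, and below they are called shallow members only. Several deep members also departed from the name, and those given are examples. Deep control members included 1 with 27690 CPM of enteroendocrine markers and 0.37% alpha-defensins. In coculture 2 deep members, at 0.441% and 0.22% by the rule, had 897.7 and 707.7 CPM of Spink4, and 1 with 0.08% alpha-defensins had 36130 CPM of goblet markers. Another cocultured member, at 0.229% by the rule, had 161.5 CPM of Lyz1, no Ang4 and 26520 CPM of goblet markers.

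The share of members turned with depth. Members were 11.11% of kept control barcodes (95% exact Clopper-Pearson interval 8.59 to 14.07%) and 4.92% of kept cocultured barcodes (3.68 to 6.42%). Among barcodes of at least 10000 UMIs the shares were 3.54% (2.04 to 5.68%, 16 of 452) and 3.88% (2.73 to 5.33%, 36 of 928), and the intervals overlapped. These counts take each barcode as 1 cell, which was not tested. Some deep cocultured members were closely alike. Those at 40022 and 28064 UMIs had 78260 and 77680 CPM of Defa24 and 1074 and 997.7 CPM of Fabp1. Among shallower kept barcodes the shares were 50.0% (44 of 88) in control and 13.76% (15 of 109) in coculture. A further 120 control barcodes and 34 cocultured barcodes passed 0.2% but failed the gene or mitochondrial filter, with median depths of 931.5 and 1253.5 UMIs.

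At the rule's edge, the 3 control members nearest the line stood at 0.202 to 0.204% and the 3 nearest barcodes outside it at 0.191 to 0.195%. The same values in the cocultured library were 0.212 to 0.22% inside and 0.177 to 0.186% outside. Only 1 of these 12 barcodes had over 10000 UMIs.

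The 2 libraries shared 0 cell barcodes. Control held 46236011 UMIs over 818 listed barcodes and coculture 100452728 over 1233, and the deep members' median depths were 88283.5 and 81584.5 UMIs. In the deep members the summed lymphatic and endothelial markers (10 genes, among them Lyve1 and Prox1) were 5.455 CPM in control and 3.719 CPM in coculture. Immune cell markers (7 genes) were 2.479 and 3.719 CPM, and all 6 fibroblast markers, with Col1a1 and Pdgfra among them, were at 0 in both. Markers of a non-epithelial partner were thus at or near 0 in these cells.

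The 5 Paneth markers were high in the deep members' sums, but not in every member, and 3 of the 5 are the genes of the rule. Ang4 had no UMI in 2 of 16 control and 8 of 36 cocultured deep members, and Defa30 had none in 1 cocultured member. Lyz1, which encodes the granule lysozyme, ranged from 1131 to 52450 CPM over the 16 deep control members (median 18810) and from 11.76 to 64330 CPM over the 36 deep cocultured members (median 11080). Defa24, the leading alpha-defensin, ranged from 1751 to 261700 CPM in control (median 49170) and from 768.8 to 322900 CPM in coculture (median 105200). Both genes were used by the rule, and both ranges overlapped almost fully between the conditions. Other deep barcodes, as the measure of background, summed to 15.45 CPM of Lyz1 and 75.71 CPM of Defa24 in control, and to 12.5 and 67.19 CPM in coculture.

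Spink4, a secreted Kazal-type peptide of Paneth and goblet cells, was not in the rule. It ranged from 2430 to 50920 CPM over the deep control members (median 23330) and from 707.7 to 74090 CPM over the deep cocultured members (median 21360). Every deep member of either library therefore carried Spink4, and its summed level was 7.77 log2 units above the other deep barcodes in control and 7.34 above them in coculture. Ang4, an antimicrobial ribonuclease, was less even. It ran from 0 to 5415 CPM in control (median 731.9) and from 0 to 14180 CPM in coculture (median 2122), with UMIs in 14 of 16 and 28 of 36 deep members. After thinning every deep barcode to 10000 UMIs, Ang4 had a UMI in 68.75% of control and 72.22% of cocultured members, against 2.523% and 1.794% of other barcodes. Without thinning these shares were 87.5%, 77.78%, 13.99% and 12.33%.

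**Figure D2:**
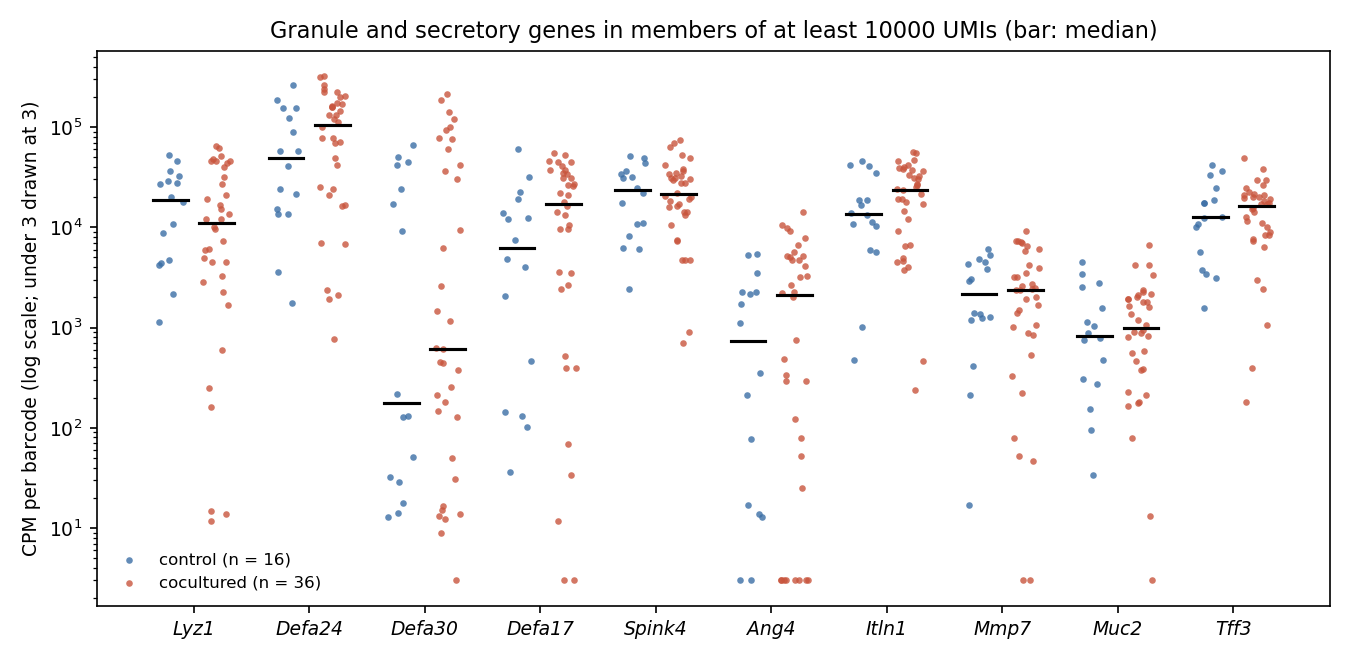
Each point is 1 member of at least 10000 UMIs and its level of a granule or secretory gene in CPM (log scale, values under 3 drawn at 3), for 16 control and 36 cocultured members; bars are medians. The conditions overlap for every gene, Defa24 has medians of 49170 and 105200 CPM, and Defa30 leaves a gap between 219.4 and 9095 CPM in control only.

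Defa30, a gene of the rule, differed widely among the deep members. In control, 7 of the 16 deep members held 9095 to 65610 CPM of Defa30 and the other 9 held no more than 219.4 CPM, so none lay between. In coculture, with the line placed at 1000 CPM after the values were seen, 17 of 36 lay above it and 19 at 622.4 CPM or below. The cocultured values ran on without a gap, with members at 1159, 1448 and 2584 CPM. Members low in Defa30 had lower medians of Defa24 and Lyz1, both genes of the rule, and of Ang4, with ranges that overlapped for Defa24. The median of Defa24 was 122100 CPM in high and 15190 CPM in low control members, and 144600 and 48730 CPM in cocultured members. Low members reached 185400 CPM of Defa24 in control and 241400 CPM in coculture, above the lowest high members at 23920 and 2368 CPM. The median of Lyz1 was 29100 and 4719 CPM in control and 15180 and 5921 CPM in coculture, although the highest Lyz1 of any deep member, 64330 CPM, was in a cocultured member with 612 CPM of Defa30. Ang4 had medians of 2255 CPM in high and 17.08 CPM in low control members, and of 5053 and 52.42 CPM in cocultured members. Defa29, a minor alpha-defensin, was above 10 CPM in 5 of 7 Defa30-high control members and in 0 of the 9 low ones, and in 16 of 17 high and 4 of 19 low cocultured members.

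Some members had almost no lysozyme. In 3 deep cocultured members Lyz1 stood at 11.76 to 14.66 CPM, the level of other deep barcodes, while Defa24 stood at 6882 to 48730 CPM. No deep control member was under 100 CPM. These 3 were chosen after their values were seen. Itln1, the sugar-binding granule lectin intelectin, was at 4536 to 9144 CPM in them and Ang4 at 0 to 745.9 CPM. The one at 11.76 CPM of Lyz1, which had no Ang4, was also the only member removed by its doublet score.

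Other genes were set against the alpha-defensin share of each deep member, most of which is Defa24 and Defa30 of the rule, so these values only describe the members chosen. Spearman's rho was 0.87 for Spink4 over the 16 control members and 0.77 over the 36 cocultured members. It was 0.68 and 0.87 for Itln1, 0.41 and 0.81 for Ang4, and 0.51 and 0.65 for the mucin Muc2. For Mki67, a marker of dividing cells, rho was 0.09 in control and -0.45 in coculture. The points of a library share its preparation, and a share of 1 gene family lowers the room for others within a barcode.

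The members were also read in bands of the rule. Deep members at 10% or more numbered 7 in control and 21 in coculture, or 43.8% (19.8 to 70.1%) and 58.3% (40.8 to 74.5%) of deep members. In these the summed cycling markers (12 genes, among them Mki67 and Top2a) were 1048 CPM in control and 488.4 CPM in coculture, but 3 barcodes held 95.1% of the UMIs in control and 3 held 72.0% in coculture. Per barcode they ran from 45.04 to 1888 CPM in control (median 252.5) and from 14.12 to 2974 CPM in coculture (median 181.4), so the conditions overlapped. In the deep members at 2 to 10% they were 1015 and 1353 CPM, over 6 and 9 barcodes. Goblet markers were high in both bands, with 23370 and 26560 CPM in the top band and 17770 and 15110 CPM in the band below.

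A few genes gave most alpha-defensin UMIs in both libraries, and 2 of these, Defa24 and Defa30, were used by the rule. Of 24 alpha-defensin genes in the files, 18 had a UMI in control members and 20 in cocultured members. Defa24 gave 65.8% of alpha-defensin UMIs in control and 61.99% in coculture, Defa30 gave 15.95% and 20.03%, and Defa17 gave 10.11% and 10.12%. These 3 genes held 91.9% and 92.1% of the family's UMIs. The sums hide the spread among deep members, in which Defa30 gave up to 34.6% of alpha-defensin UMIs in control (median 1.1%) and up to 39.3% in coculture (median 0.9%). Among the minor genes Defa29 gave 0.7104% in control and 1.595% in coculture. In sorted small intestinal tissue, over all barcodes of 1 library, all 24 genes had UMIs and the leading 3 held 79.5%.

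The tissue differed in the genes that came next. Defa17 gave 0.4995% of alpha-defensin UMIs there. Defa21 gave 7.688% and Defa22 7.606% in tissue, against 0.00398% and 0.1209% in control members and 0.5814% and 0.7977% in cocultured members. AY761184, an alpha-defensin known by its sequence accession only, gave 9.43% in tissue, 3.891% in control and 1.32% in coculture. Alpha-defensin genes are near-identical copies that can share reads, so the split between them is uncertain. The other kept organoid barcodes showed almost the members' mix, with Defa24 at 66.15%, Defa30 at 14.76% and Defa17 at 13.03% of their 4859 alpha-defensin UMIs in control.

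**Figure D3:**
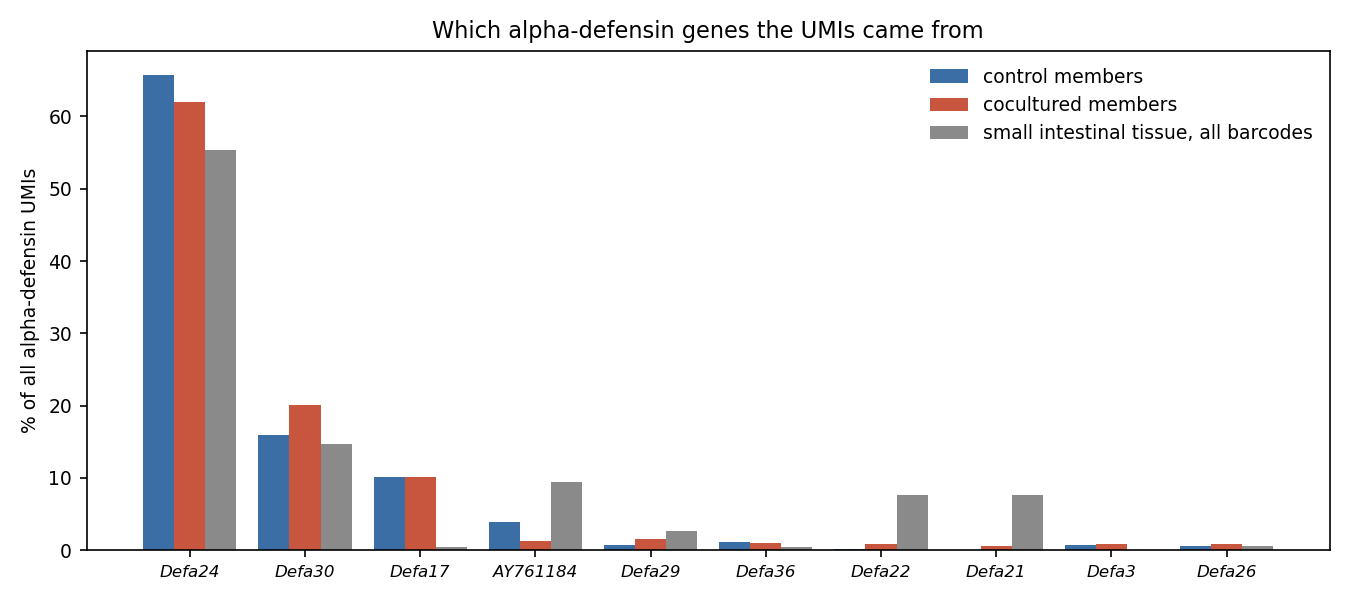
Bars give each gene's share of all alpha-defensin UMIs, in percent, for control members, cocultured members and all barcodes of the small intestinal tissue library. Defa24 leads in all 3, Defa17 is near 10% only in the organoid members, and Defa21 and Defa22 are above 7% only in the tissue.

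Coculture was then compared with control over the members' summed UMIs. A gene entered this comparison with at least 50 UMIs in the members of the higher library and UMIs in at least 20% of them, and 2-fold was the size called. Of 5126 genes, 37 were at least 2-fold higher in coculture (0.722%) and 170 at least 2-fold lower (3.32%). In the other kept barcodes the counts were 43 of 9801 (0.439%) and 150 (1.53%). The median log2 ratio of all genes was -0.25 in members and -0.08 in the others. Scaling by the median of ratios added 0.3 to every log2 ratio in members and turned the split to 83 higher and 46 lower, and leaving Lyz1, alpha-defensins, mitochondrial and ribosomal protein genes out of the total added 0.14 and gave 56 and 90. A ratio between -0.3 and 0 therefore changes sign under the first of these scalings. Over deep members alone the counts were 46 of 5164 genes higher (0.891%) and 194 lower (3.76%), and over other deep barcodes 46 of 9957 (0.462%) and 162 (1.63%).

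The alpha-defensin values follow as a description, since Defa24 and Defa30 chose the members and held 81.7% of the family's UMIs in control and 82.0% in coculture. All 14 alpha-defensins that passed the filter except AY761184 had a log2 ratio above 0, and the median was 0.91. Of the 14, 5 were at least 2-fold higher, against 0.722% of all genes. Defa30 is a rule gene, and Defa22, Defa23 and Defa29, with UMIs in 6, 9 and 7 of 60 control members, passed only through coculture, so nothing is read from these counts. Between 10000 and 200000 UMIs 12 of 16 were above 0, with a median of 0.48. There Defa20, Defa21, Defa22 and Defa29 were at least 2-fold higher and AY761184 2-fold lower, and Defa23, Defa26 and Defa30 were under 2-fold. The shares of all genes there were 1.3% higher and 2.59% lower, and nothing is read from these counts either. Defa24 was at 63710 CPM in control and 106000 CPM in coculture, a log2 ratio of 0.73 (0.73 to 0.74). Defa30 was at 15440 and 34260 CPM, a log2 ratio of 1.15, with 1 barcode holding 25.5% of the cocultured UMIs. AY761184 went the other way, from 3767 to 2257 CPM, and 1 barcode held 53.2% of its control UMIs.

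Several minor alpha-defensins rested on a few barcodes. Defa22 was at 117 CPM in control and 1364 CPM in coculture, and 1 cocultured barcode held 58.6% of its UMIs. Defa21, which did not pass the filter, had 8 control and 3511 cocultured UMIs, of which 1 barcode held 95.7%. Defa29 was at 687.8 and 2727 CPM, a log2 ratio of 1.99, with UMIs in 7 and 21 members but 1 control barcode held 63.4% of its control UMIs and 1 cocultured barcode 40.3% of its cocultured UMIs.

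Summed over the family, alpha-defensins were 96820 CPM in control and 171000 CPM in coculture, a log2 ratio of 0.82. A few very deep barcodes weighed on this value. In each library 2 members had over 200000 UMIs, and they held 34.6% of the deep control members' UMIs and 16.2% of the deep cocultured members' UMIs. The deepest control member, at 387180 UMIs, had 0.29% by the rule. Between 10000 and 200000 UMIs the family's log2 ratio was 0.4, that of Defa24 0.29, that of Defa30 0.77, and the counts were 51 higher (1.3% of 3936 genes) and 102 lower (2.59%). As a mean over all members' own CPM, in which shallow members weigh as much as deep ones, the family's ratio was 1.92. The direction was the same in each of these, and the size was not.

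Lysozyme gave no stable direction. Lyz1 was at 16410 CPM in control members and 16750 CPM in cocultured members, a log2 ratio of 0.03 (0.01 to 0.05). Between 10000 and 200000 UMIs its log2 ratio was -0.3, under median-of-ratios scaling it was 0.33, and as a mean over all members' own CPM it was 1.18, so its direction depends on the choice. The other granule genes ran from -0.58 to 1.64. Their list of 24 includes Lyz1 itself, so its counts, median and sums below contain a gene that chose the members. Of the 13 that passed in the list of 24 granule and antimicrobial genes, 3 were at least 2-fold higher in coculture and none 2-fold lower, against 0.722% and 3.32% of all genes. Their median was 0.38, against -0.25 over all genes, and 11 of 13 were above 0. Between 10000 and 200000 UMIs the median was 0.16 and 8 of 14 were above 0. The log2 ratio of the list's summed level was 0.36 over all members and -0.01 in that range, where the sums were 92230 and 91420 CPM.

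Ang4 was at 1413 CPM in control and 2671 CPM in coculture, a log2 ratio of 0.92 (0.86 to 0.98), and was 0.73 between 10000 and 200000 UMIs. Itln1 was at 12980 and 21150 CPM, a ratio of 0.7, which was 0.26 in the same depth range. Spink4 was at 18980 and 23150 CPM, a ratio of 0.29 that turned to -0.11 in that range. Mmp7, the protease matrilysin that cuts pro-defensins to their active form, was at 1920 and 2244 CPM, a ratio of 0.22 that became -0.01.

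Reg4, a secreted C-type lectin, was at 510.1 CPM in control members and 1237 CPM in cocultured members, a log2 ratio of 1.28, and 1.19 between 10000 and 200000 UMIs. It was 0.8961 CPM in other deep control barcodes and 104 CPM in other deep cocultured barcodes, so it was also higher outside the members. Pnliprp2, a lipase related to those of the pancreas, was at 39.01 and 121.5 CPM (1.64, but 0.65 and under 2-fold as a mean of each member's CPM), and Clps, the lipase cofactor colipase, at 635.3 and 1210 CPM (0.93). In other deep barcodes Pnliprp2 was at 40.35 and 15.68 CPM (-1.36) and Mmp7 at 49.94 and 12.65 CPM (-1.98), opposite in sign to the members' 1.64 and 0.22, and the difference was not tested. Nupr1, a stress-induced nuclear protein, was at 85.25 and 219.5 CPM (1.36), with 22.8% of its cocultured UMIs in 1 barcode. At the other end Pigr, which carries IgA across the epithelium, was at 614.1 and 409.7 CPM (-0.58).

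**Figure D4:**
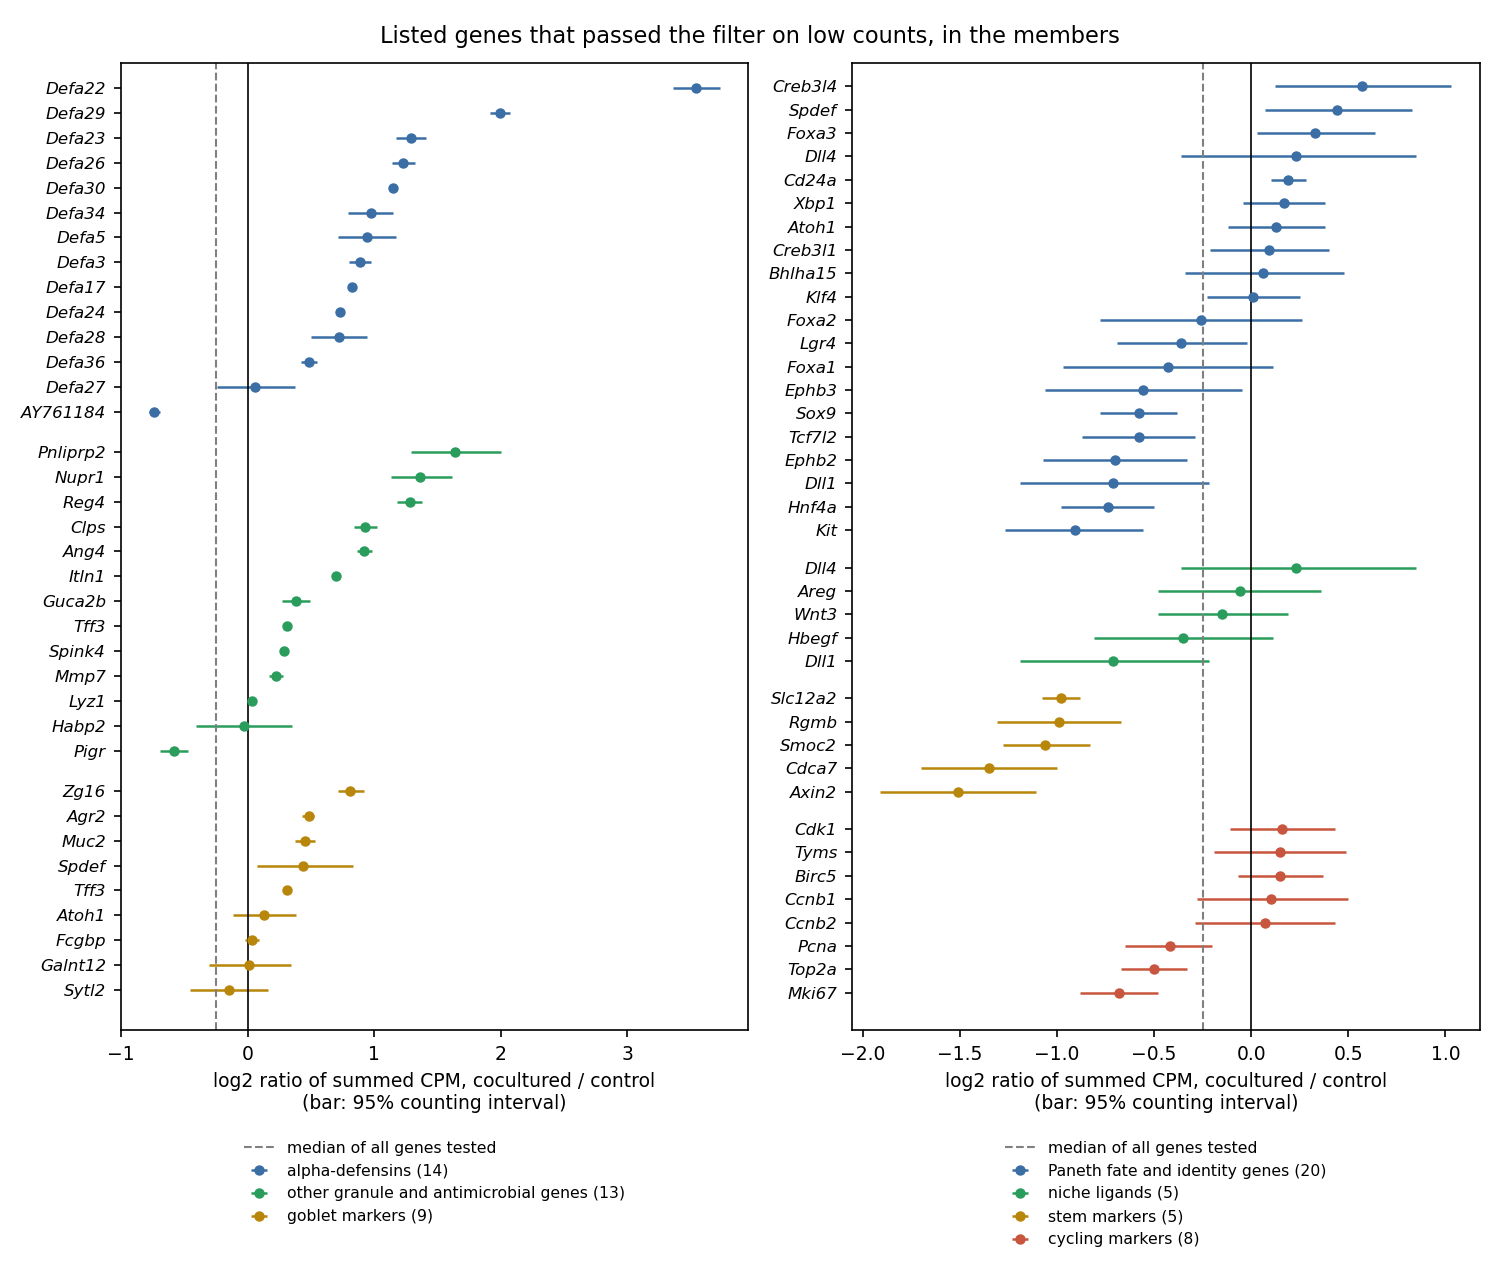
Points give the log2 ratio of summed CPM, cocultured to control members, with 95% counting intervals, for every gene of 7 lists that passed the filter on low counts; the dashed line is the median of all genes tested, -0.25. Alpha-defensins other than AY761184 lie above 0, and all 5 stem markers lie at -0.98 or below.

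Stem cell markers were lower in the cocultured members. Of 10 such genes 5 passed the filter, all 5 had a ratio below 0, and 3 (Smoc2, Axin2, Cdca7) were at least 2-fold lower, against 3.32% of all genes, with a median of -1.06 against -0.25 over all genes. Axin2, a direct target of Wnt signalling, was at 68.39 CPM in control and 24.07 CPM in coculture, a log2 ratio of -1.51 (-1.91 to -1.11). Per deep member it ran from 0 to 122 CPM in control (median 51.64) and from 0 to 91.74 CPM in coculture (median 17.42), so the ranges overlapped. In other deep barcodes it was 39.48 and 23.97 CPM, a log2 ratio of -0.72 (-0.81 to -0.63). The difference between the members' ratio and the others' was not tested.

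Slc12a2, a sodium-potassium-chloride cotransporter of crypt-base cells, was at 871.8 CPM in control and 441.5 CPM in coculture, a ratio of -0.98 (-1.08 to -0.88). Its medians over deep members were 895.8 and 396.4 CPM, and its ratio in other deep barcodes was -0.73. Smoc2 was at 172.4 and 82.97 CPM (-1.06), with -0.18 in other deep barcodes, and Rgmb at 86.7 and 43.61 CPM (-0.99), with -0.4. Cdca7 was at 84.29 and 33.13 CPM (-1.35), but between 10000 and 200000 UMIs its ratio was -0.52. In that range Axin2 stood at -1.31, Slc12a2 at -0.92, Smoc2 at -0.89 and Rgmb at -1.02.

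Lgr5, the receptor that defines crypt-base stem cells, did not pass the filter. It had 48 UMIs in 9 control members and 17 UMIs in 8 cocultured members, or 23.12 and 4.814 CPM. Olfm4, another stem marker, had 251 and 104 UMIs and also did not pass, with 46.2% of its control UMIs in 1 barcode. In the deep members the stem list summed to 1473 CPM in control and 676.8 CPM in coculture, and in other deep barcodes to 896.4 and 577.1 CPM. The lower stem level in coculture was thus present in both kinds of barcode.

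Of the 28 Paneth fate genes 20 passed, none reached 2-fold in either direction, and their median log2 ratio was -0.13. Between 10000 and 200000 UMIs 4 of 17 were above 0, the median was -0.32 and Kit was 2-fold lower. Kit, a receptor of secretory crypt cells, was at 68.87 CPM in control and 36.53 CPM in coculture (-0.91, -1.27 to -0.56), with medians over deep members of 114.2 and 34.97 CPM, and stood at -1.3 between 10000 and 200000 UMIs. Sox9, the Wnt-induced factor needed to make Paneth cells, was at 190.2 and 127.1 CPM (-0.58), and the ephrin receptors Ephb2 and Ephb3, which place cells along the crypt axis, had ratios of -0.7 and -0.56. In other deep barcodes these 3 ratios were -0.69, -0.7 and -1.14. The secretory factors lay nearer 0, with Atoh1 at 100.2 and 109.6 CPM (0.13, -0.12 to 0.38), Bhlha15 at 0.06 and Xbp1 at 0.17. Spdef was at 41.42 and 56.35 CPM (0.44, 0.07 to 0.83).

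Niche ligands were sparse. Of 22 ligands 5 passed the filter and none reached 2-fold, against 0.722% of all genes higher and 3.32% lower. Between 10000 and 200000 UMIs 3 passed and Areg was 2-fold higher (1.37), against 1.3% of all genes. Over all members Areg stood at -0.06, so its value depends on the depth limit. Wnt3, the Wnt ligand that Paneth cells give to stem cells, had 125 UMIs in control and 192 in coculture, or 60.21 and 54.37 CPM (-0.15, -0.48 to 0.19). Dll4, a Notch ligand, had 36 and 72 UMIs (0.23, -0.36 to 0.85), and Dll1, another, had 73 and 76 (-0.71, -1.19 to -0.22). Egf had 3 and 11 UMIs, too few for a comparison. Rspo1 and Rspo3, Wnt agonists made by stromal cells, had 0 UMIs in both, which with 2076239 and 3531461 UMIs in all allows up to 3 UMIs in each.

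Genes of the secretory pathway's folding machinery followed. Of 28 genes of protein folding in the endoplasmic reticulum and its stress response 26 passed, 1 was at least 2-fold higher and none 2-fold lower, against 0.722% and 3.32% of all genes. Their median was -0.02, against -0.25 over all genes, and the sign of such a value depends on the scaling. Hspa5, the main chaperone there, was at 928.6 and 914.6 CPM (-0.02, -0.1 to 0.06). The exception was Ddit3, a stress-response transcription factor, at 28 and 112 UMIs (1.23, 0.63 to 1.89), with 35.7% of the cocultured UMIs in 1 barcode. Agr2, a disulfide isomerase that helps fold mucins, was at 2488 and 3459 CPM (0.48).

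In the metabolic and stress lists 1 gene reached 2-fold, against 0.722% of all genes higher and 3.32% lower, and nothing is read from these counts. Of 18 glycolysis and lactate genes that passed, none reached 2-fold, and the median was 0.02. Of 8 zinc-handling genes, only Slc39a5, a zinc importer, passed 2-fold, at 23 and 85 UMIs (1.12, 0.44 to 1.85). Mt1, a metallothionein, was at 1131 and 1301 CPM (0.2). None of 9 autophagy and cell death genes or of 6 immune response genes reached 2-fold, with medians of -0.19 and 0.01. Reg3b had 0 UMIs in the deep members of both libraries and Reg3g 13 and 36, although both encode antimicrobial lectins of the small intestine.

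Goblet markers were present in the members beside the Paneth genes. All 9 that passed over all members were within 2-fold between conditions. Clca1, which passed over deep members only, was at 79.84 and 12.59 CPM there (-2.67), with 87.6% of its control UMIs in 1 barcode. Muc2, the secreted mucin, was at 893 and 1221 CPM (0.45, and 0.00 between 10000 and 200000 UMIs). Fcgbp, a mucus protein, was at 2318 and 2375 CPM (0.03). Summed enteroendocrine markers were 862.1 CPM in control and 231.1 CPM in coculture. In control this came from 1 deep member with 27690 CPM of these hormone-cell genes, while the other 15 deep control members held 10.33 to 370.4 CPM. That member had 0.576% by the rule and 6251 CPM of Spink4.

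By the size rule, the 10 genes highest in coculture were Sval1, Defa29, Espn, Pnliprp2, Chac1, Tmub1, Ces2e, Piwil4, Id3 and Cib2. Most rested on few molecules. Espn, an actin-bundling protein, had 12 and 79 UMIs (1.95) and Sval1 2 and 58. Id3, an inhibitor of basic helix-loop-helix transcription factors, had 39 and 180 UMIs (1.44), with 33.9% in 1 barcode. Chac1, a stress-induced glutathione-degrading enzyme, had 13 and 67 UMIs (1.6), and its direction turned, at -2.14, when each member's CPM was averaged.

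The 10 lowest were Clca4b, AY036118, Nr4a2, Utp14b, Mid1, Nbea, Trim56, Hist1h3e, Hspa4l and Tob2. Clca4b, of the family of calcium-activated chloride channel regulators, had 73 and 17 UMIs (-2.87). Nr4a2, an immediate-early nuclear receptor, had 70 and 32 (-1.9). Mid1, a microtubule-associated ubiquitin ligase, had 64 and 32 (-1.77). As a mean of each member's CPM, the ratio of Nr4a2 was -0.91 and that of Mid1 -0.12, so neither was 2-fold lower in that setting.

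Deep members were also set against the other deep barcodes of their own library, where the rule chose them and no test applies. A gene passed by its counts in the higher of the 2 groups alone, so the counts below only describe the members chosen. Of 7669 genes in control 231 were at least 2-fold higher in members (3.01%) and 956 lower (12.5%), and of 8885 in coculture 258 (2.9%) and 1288 (14.5%). Over all members the same counts were 212 of 7575 (2.8%) and 862 (11.4%) in control, and 258 of 8792 (2.93%) and 1225 (13.9%) in coculture. The 10 highest over both libraries were Defa36, Defa26, Lyz1, Defa3, Defa30, Defa24, Ang4, Defa17, Lamb1 and Habp2. Lamb1, a chain of the basement membrane protein laminin, was at 34.71 CPM in control members against 0.04844 CPM in others, and at 21.74 against 0.05306 CPM in coculture. Habp2, a secreted serine protease, was at 46.61 against 0.1211 CPM and at 45.2 against 0.1486 CPM.

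Most of the secretory factors were higher in the deep members in both libraries, Xbp1 was nearly the same (0.13 and 0.28 on the log2 scale), and the niche ligands went both ways. Wnt3 was at 61.99 CPM in control members against 0.4117 CPM in others (7.23 on the log2 scale) and at 54.92 against 0.902 CPM in coculture (5.93). Atoh1 was 4.91 and 5.4 log2 units higher in members, Bhlha15 5.96 and 6.17, Creb3l4 6.04 and 6.08, and Kit 6.82 and 4.91. Of the fate list, 13 of 22 genes that passed were at least 2-fold higher in control and 14 of 24 in coculture. The shares of all genes were 3.01% and 2.9%. Genes high in the members could pass by their counts there alone, so these counts are a description. Fzd5 and Nr5a2 were 2-fold lower in both, against 12.5% and 14.5% of all genes, and nothing is read from that. Of the niche ligands that passed, 2 of 7 (Wnt3 and Dll1) were at least 2-fold higher in control members and 3 of 9 (with Dll4) in cocultured members. The shares of all genes were 3.01% and 2.9%. Hbegf, Areg and Btc were 2-fold lower in both, against 12.5% and 14.5% of all genes. The summed level of the niche ligands was lower in members, by -1.79 and -1.05 on the log2 scale. Areg, a ligand of the epidermal growth factor receptor, was at 21.32 against 549.4 CPM in control and 28.89 against 259.6 CPM in coculture.

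Goblet markers were higher in the deep members too. All 10 that passed in control and all 9 in coculture were at least 2-fold higher (3.01% and 2.9% of all genes). They could pass by their counts in the members alone. Paneth cells share Atoh1 and Spdef of this list, and 1 barcode held 87.0% of the Clca1 UMIs of all control members. Summed levels were 17270 against 679.5 CPM in control and 20920 against 729.9 CPM in coculture. Muc2 was at 917.9 against 6.345 CPM in control and 1233 against 14.94 CPM in coculture. Per deep member the goblet markers ran from 2872 to 71090 CPM in control and from 258.1 to 87500 CPM in coculture, and 2 cocultured members were below the level of the others. Most deep members thus carried Paneth and goblet transcripts together, and whether single cells or joined cells gave this was not tested beyond a doublet score, whose removals took 0 control members and 1 cocultured member.

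Enterocyte genes and glycolysis lay on the other side. All 9 enterocyte markers that passed were at least 2-fold lower in members in each library (12.5% and 14.5% of all genes), with Fabp1 at 130.4 against 2931 CPM and 179.6 against 4967 CPM. Of 19 glycolysis and lactate genes, 10 were at least 2-fold lower in each library, against 12.5% and 14.5% of all genes. Their median was -1.08 in both, against -0.25 and -0.44 over all genes. Ldha, which makes lactate from pyruvate, was at 1111 against 2448 CPM in control and 1230 against 2889 CPM in coculture. Ern2, a stress sensor of mucus-secreting cells, stood 4.91 and 5.07 log2 units higher in members, whereas Hspa5 stood only 0.28 and 0.35 higher.

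For the stem markers, in control 2 of the 7 that passed, Slc12a2 and Rgmb, were at least 2-fold higher in deep members than in other deep barcodes. The share of all genes was 3.01%. In coculture none of 7 was 2-fold higher (2.9% of all genes) and Olfm4 was 2-fold lower (14.5% of all genes). Nothing is read from these counts. Slc12a2 stood 1.15 log2 units higher in control members and 0.89 in cocultured ones, Axin2 0.81 and 0.02, and Smoc2 0.02 and -0.89. The change in these differences between libraries has no replicate and was not tested.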

How the data were processed

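The deposited files gave counts of UMIs per gene and cell barcode, made by the authors with Cell Ranger 6.0.1 on mm10, per the submitters' processing notes; they hold 32285 gene identifiers, of which 32158 matched the reference names. Counts were read as deposited in Python 3.11.15 (numpy 2.4.6, scipy 1.17.1, pandas 2.3.3, scanpy 1.11.5). UMIs were summed over members and scaled to CPM. Ratios carry exact 95% conditional intervals, and counts under 3 were set to 3 for a ratio. With 1 library per condition no test was run. The script recovered 100 of 100 genes raised and 100 of 100 lowered 4-fold in simulated Poisson counts for the comparison of conditions over 5090 genes. The simulation had no spread among barcodes, so it checks the calculation only and lends no support to the ratios.

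Named genes were the fixed lists and, in each comparison, the 10 highest and 10 lowest ratios among genes that passed the filter with no barcode over 50% of the UMIs, leaving out mitochondrial, ribosomal protein, sex-linked marker and unnamed genes. A symbol with several identifiers was read from the one with most UMIs. The members, the lists and the rule were chosen with earlier results of these data known. Other filters, scalings, thresholds, doublet removal and depth limits were tried as alternatives. The control and cocultured samples were pooled for submission, per the labels.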

Additional observations from a re-analysis of the deposited data

How the results depend on the processing

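With 1 library per condition, counting error and depth limit every value. The settings with a depth limit of 10000 or 200000 UMIs were added after seeing the data. The control and cocultured shares of members were 14.44% and 7.81% at a threshold of 0.1%, 2.41% and 3.09% at 2%, and the control share was 6.3% at 0.5% and 3.54% over barcodes of at least 10000 UMIs; the order of the shares turned at 2% and with the depth limit. The log2 ratio of summed alpha-defensins and that of Lyz1 were, in turn, 0.6 and -0.18 at 0.5%, 0.61 and -0.18 at 2%, 0.78 and -0.02 at 10% mitochondrial UMIs, 0.89 and 0.1 without the highest doublet scores, 0.79 and 0.00 from 10000 UMIs, 0.4 and -0.3 from 10000 to 200000 UMIs, 0.96 and 0.17 with granule, mitochondrial and ribosomal genes out of the total, 1.12 and 0.33 with median-of-ratios scaling, 1.92 and 1.18 as a mean of each barcode's CPM, 0.67 and -0.1 as that mean from 10000 UMIs, and 0.84 and 0.15 without the top barcode of each library; alpha-defensins were 0.83 at 0.1%. Counts of genes 2-fold higher and lower were 56 and 90 with those genes out of the total, 83 and 46 with median-of-ratios scaling, 856 and 769 as a mean of CPM, 61 and 271 as that mean from 10000 UMIs, 105 and 571 with at least 20 UMIs and no minimum share of members, and 102 lower from 10000 to 200000 UMIs. Spink4 in members against others was 6.04 (control) and 6.34 (coculture) as a mean of CPM, 7.23 and 7.09 at 2%, and 7.36 (coculture) without the highest doublet scores, against 7.72 and 7.32. Chac1 reversed to -2.14 as a mean of CPM. The cause of these differences was not tested. No paired analysis was possible because each organoid condition has 1 library.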
